A study of Mus musculus with 6 samples.

Results

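Translation initiation factors load the small ribosomal subunit with initiator tRNA, bring it to the capped end of an mRNA and place it on the start codon. The genes described here are the protein-coding genes of the deposited table whose symbol begins with Eif and a digit, which takes in the eIF2 kinases (Eif2ak) and the eIF4E binding proteins (Eif4ebp). The rule found 55 of the 18956 genes in the table, by symbol and gene type alone, although the group was picked for description with earlier results of these data known. They were compared between 3 RNA sequencing libraries of mouse lung endothelial cells labelled wild type and Cre-negative (the WT group) and 3 labelled CSE-KO with Cre present (the CSE-KO group). CSE is cystathionine gamma-lyase, an enzyme that makes cysteine from cystathionine and is encoded by Cth. The sources used here give no treatment, age, sex, Cre driver or deleted exons, and do not say whether replicates came from separate animals or cultures. P-values therefore rest on library-to-library spread alone, and that spread may be technical.

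A pair of steps of initiation is regulated most. eIF2 carries the initiator tRNA, and when a stress-activated kinase phosphorylates its alpha subunit, eIF2 blocks eIF2B, the factor that recharges it. General initiation then slows, while some mRNAs with upstream open reading frames, such as that of the transcription factor ATF4, are read more. The other step is cap binding, in which eIF4E joins eIF4G and the helicase eIF4A to form eIF4F, and the eIF4E binding proteins hold eIF4E back until mTORC1, the growth kinase complex, phosphorylates them. Both steps are set largely at the protein level, which mRNA counts do not show.

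Values are normalized counts unless stated, given for the libraries 1 to 3 of a group in that order or as mean ± SD over the 3. Library totals ran from 6028772 to 6052275 for WT and from 5698922 to 5765008 for CSE-KO. Cth, the targeted gene, was at 29, 27 and 26 in the WT group against 49, 43 and 63 in the CSE-KO group, which goes against the label for a value summed over the whole gene. Groups are therefore named by label only, and every direction below is that of the libraries labelled CSE-KO against those labelled WT. The endothelial markers Pecam1 and Cdh5 were at 1875 or more in every library, and 10 of 12 endothelial markers fell, with sums of 17654 to 17973 in WT and 12099 to 12674 in CSE-KO. Of 13 macrophage markers 12 rose, with sums of 267 to 321 in WT and 1286 to 1615 in CSE-KO, with Adgre1, Marco and Ptprc at 0 in every WT library. All 10 proliferation markers fell, with sums of 9313 to 9600 in WT and 3426 to 4462 in CSE-KO. Of 10 tested fibroblast and mural markers 4 rose and 3 fell, with sums of 1548 to 1662 and 1937 to 2387, and the 5 lung epithelial markers in the table summed to 34 to 46 in every library. The part of these shifts in the results below was not tested, and in bulk RNA fewer cells of a type cannot be told apart from less RNA per cell. By an index that treats the values as unscaled counts, differences between WT libraries did not exceed counting noise. CSE-KO 1 stood somewhat apart from the other CSE-KO libraries.

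The initiation factor genes were called about as often as other genes at the adjusted p, and their changes were smaller in median size. A gene was tested if it reached 10 in at least 3 libraries, which 53 of the 55 members did. At an adjusted p under 0.05 (limma, Benjamini-Hochberg over 13750 genes), 27 members rose, 11 fell and 15 did not pass. That is 38 of 53 called (71.7%), where 77.4% of all tested genes were called, 38.3% higher and 39.0% lower. The share called is thus near the background and is no result about these genes. The median log2 fold change was 0.09 over the members and 0.00 over all tested genes. The median size in either direction was 0.22 for the members and 0.43 for all tested genes. Over the protein-coding genes tested it was 0.41, and 80.4% of those were called. The members also had a median WT mean of 618, against 275 over all tested genes and 330 over protein-coding ones. The part of level in the smaller size was not tested. In a stricter limma test against a fold of 1.2, 12 members rose and 5 fell, where 23.1% of all tested genes rose, 25.7% fell and 48.8% passed in all, against 32.1% of the members. In 38 members the groups did not overlap, 28 above and 10 below WT, where the groups of 80.4% of all tested genes did not overlap. No member changed by 2-fold or more. The members together made up 0.725%, 0.710% and 0.711% of the library total in the WT group against 0.796%, 0.803% and 0.798% in the CSE-KO group.

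**Figure D1:**
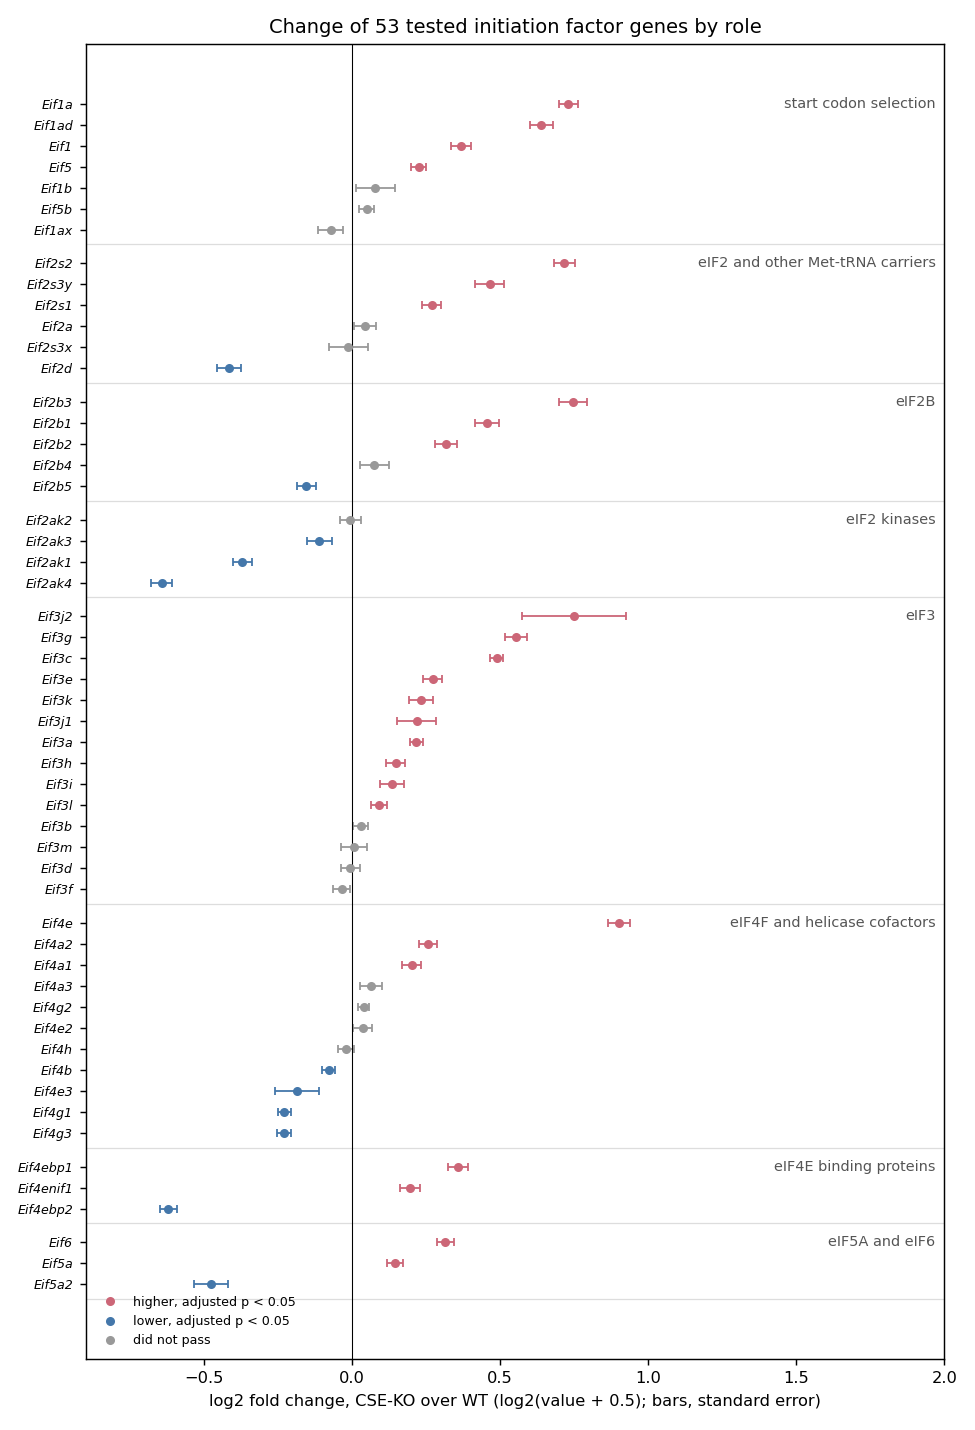
Log2 fold change of each of the 53 tested initiation factor genes, CSE-KO over WT, on the log2(value + 0.5) scale, with standard error bars from limma, grouped by role. The 27 genes in red rose, the 11 in blue fell and the 15 in grey did not pass, and all lie between −0.64 (Eif2ak4) and 0.90 (Eif4e).

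**Figure D2:**
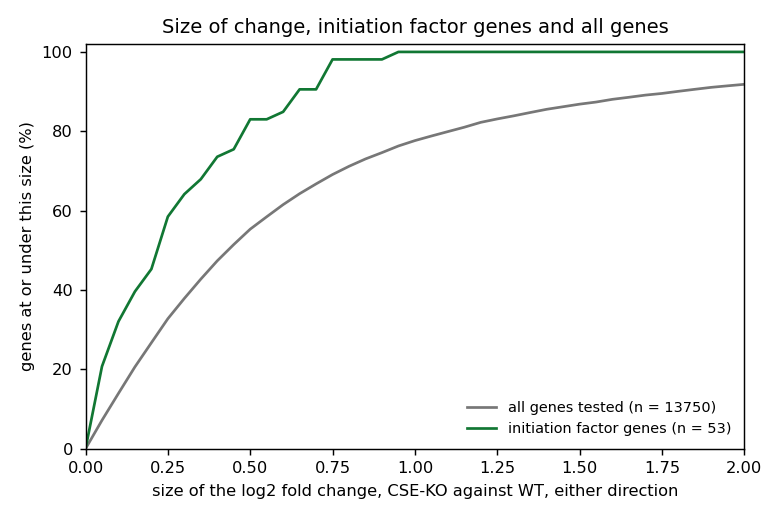
Share of genes (percent, vertical axis) whose log2 fold change between CSE-KO and WT is at or under the size on the horizontal axis, in either direction, for the 53 initiation factor genes and for all 13750 genes tested. The line of the initiation factor genes lies above that of all genes, with medians of 0.22 and 0.43.

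Of the eIF2 genes, those for the alpha and beta subunits rose and the X-linked gene for the gamma subunit did not pass. Eif2s1 encodes the alpha subunit, the one that the kinases phosphorylate. It was at 575, 585 and 596 in the WT group against 722, 694 and 699 in the CSE-KO group, a log2 fold change of 0.27 (SE 0.03, adjusted p = 1.6e-05). Eif2s2, for the beta subunit, was at 444, 430 and 430 against 695, 722 and 727. Every CSE-KO value of both genes lay above every WT value, and the change of Eif2s2 was 1.64-fold (log2 fold change 0.72, SE 0.03, adjusted p = 1.3e-08).

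The gamma subunit has a gene on each sex chromosome, and the Y-linked gene passed the test while the X-linked gene did not. Eif2s3x, on the X chromosome, was at 174, 168 and 162 in the WT group against 164, 167 and 168 in the CSE-KO group (log2 fold change −0.01, adjusted p = 0.86). Eif2s3y, on the Y chromosome, was at 307, 283 and 277 against 392, 403 and 400, and rose 1.38-fold (log2 fold change 0.46, SE 0.05, adjusted p = 6.5e-06). The Eif2s3y groups did not overlap, whereas those of Eif2s3x did. Other Y-linked genes did not move together: Ddx3y rose from 825 ± 31.2 to 1194 ± 31.8, Kdm5d fell from 518 ± 4.58 to 368 ± 13.3, and Uty was at 391, 400 and 380 against 353, 405 and 388. These 3 genes were chosen after their values were seen. The coding sequences of Eif2s3x and Eif2s3y are closely related, so the split of reads between them is uncertain.

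Eif2a and Eif2d encode single-chain proteins that can also bring tRNA to the ribosome. Eif2a was at 502, 505 and 504 in the WT group against 535, 502 and 521 in the CSE-KO group, and missed the threshold (adjusted p = 0.29). Eif2d, which acts in reinitiation, was at 587, 573 and 611 against 447, 425 and 454, and fell by 0.42 on the log2 scale (SE 0.04, adjusted p = 2.8e-06). Eif2d overlaps 11249 bases of Rassf5 on the opposite strand, which went from 174, 189 and 183 to 402, 439 and 416. The strand setting of the counting is not given in the sources used here.

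The subunit genes of eIF2B, the exchange factor that recharges eIF2 with GTP, did not all move the same way. Of the 5 genes 3 rose, 1 fell and 1 did not pass. The share called, 80.0%, was near the 77.4% of all tested genes and is no result about eIF2B. Eif2b3, for the gamma subunit, was at 258, 267 and 245 in the WT group against 434, 431 and 426 in the CSE-KO group, a 1.68-fold rise (log2 fold change 0.75, SE 0.05, adjusted p = 9.0e-08). Eif2b1, for the alpha subunit that bridges the complex, was at 382, 361 and 355 against 504, 499 and 503 (log2 fold change 0.46, SE 0.04, adjusted p = 1.4e-06). Eif2b2, for the beta subunit, was at 455, 460 and 475 against 564, 574 and 595 (log2 fold change 0.32, SE 0.04, adjusted p = 1.2e-05). In each of these 3 genes the groups were apart. Eif2b5, for the epsilon subunit that holds the catalytic domain, ran the other way, at 710, 734 and 730 against 658, 662 and 633, and fell by 0.15 on the log2 scale (adjusted p = 0.0010). Eif2b4, for the delta subunit, was at 288 ± 8.08 and 304 ± 9.07 (adjusted p = 0.19).

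Of the 4 eIF2 kinase genes 3 fell, 0 rose and 1 did not pass, where 39.0% of all tested genes were called lower. A difference from the other roles was not tested, and the call of Eif2ak3 was lost under several alternatives. GCN2, encoded by Eif2ak4, senses uncharged tRNA when amino acids run short. Its gene was at 628, 628 and 655 in the WT group against 403, 410 and 409 in the CSE-KO group. That was the largest fall among the 53 tested members (log2 fold change −0.64, SE 0.04, adjusted p = 3.0e-08), with Eif4ebp2 close behind (−0.62). Eif2ak1, for the heme-regulated kinase HRI, which also responds to mitochondrial stress, was at 799, 839 and 797 against 629, 637 and 616. It fell by 0.37 on the log2 scale (SE 0.03, adjusted p = 1.2e-06), and neither gene's groups overlapped. On mm10, Eif2ak4 lies at chr2:118388618-118475234 and Eif2ak1 at chr5:143817788-143904251, both on the plus strand. Part of Eif2ak1 lies opposite Aimp2 and Ankrd61.

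Changes were smaller for the kinases of the endoplasmic reticulum and of double-stranded RNA. Eif2ak3, for PERK, was at 559, 590 and 589 in the WT group against 520, 524 and 566 in the CSE-KO group. The groups overlapped, and the fall of 0.11 on the log2 scale (adjusted p = 0.032) was lost without WT 2 (adjusted p = 0.10), without WT 3 (0.10), without CSE-KO 1 (0.077), without CSE-KO 2 (0.10) and with equal library totals (0.43). Eif2ak2, for PKR, was the most abundant of the 4 per kilobase of exon, at 236 ± 9.20 in WT and 235 ± 8.85 in CSE-KO. Its counts were 1254, 1160 and 1203 against 1186, 1251 and 1164 (log2 fold change −0.01, adjusted p = 0.88). Next per kilobase in WT came Eif2ak1 at 143 ± 4.18, Eif2ak3 at 96.1 ± 2.92 and Eif2ak4 at 85.4 ± 2.09. In CSE-KO the order was the same, with Eif2ak4 at 54.6 ± 0.508, and no neighbours in either order overlapped within 1 SD.

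**Figure D3:**
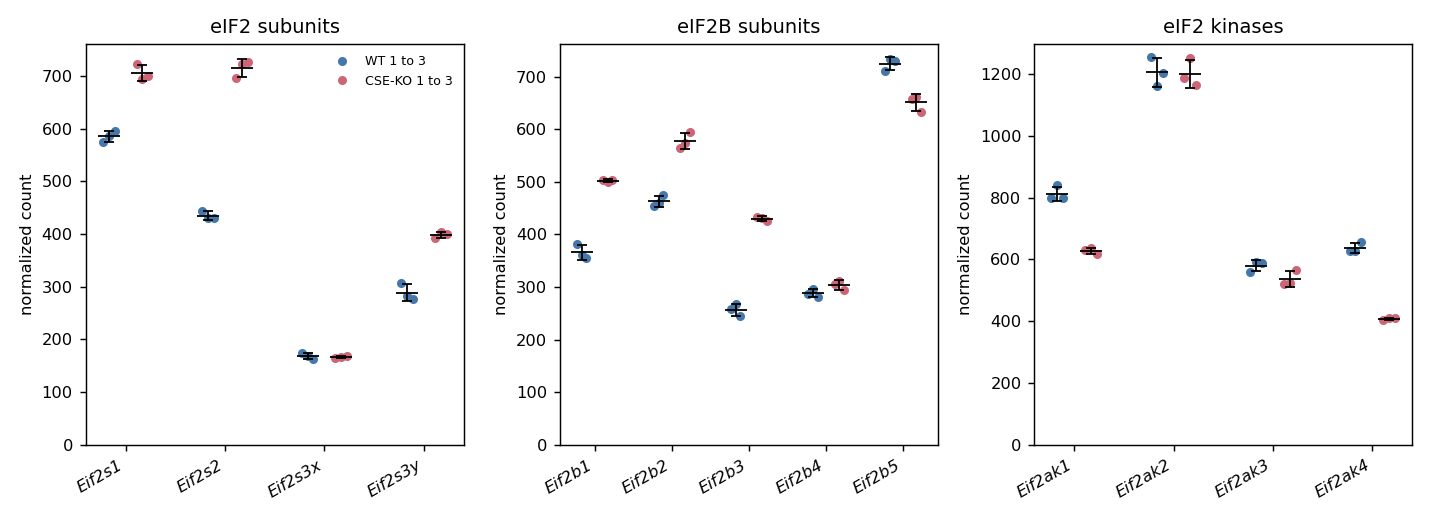
Normalized counts of the eIF2 subunit, eIF2B subunit and eIF2 kinase genes in each library, with WT 1 to 3 in blue and CSE-KO 1 to 3 in red, and black marks for the mean ± SD of 3 libraries. Eif2s2 and Eif2b3 lie higher in every CSE-KO library, at 715 and 430.3 on average against 435 and 257, and Eif2ak4 lies lower, at 407 against 637.

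Genes around this arm were taken from lists made by function. Of 16 phosphatase subunits and regulators of the eIF2 kinases, 5 rose, 6 fell and 5 did not pass, with a median log2 fold change of −0.03. The share called was 68.8%, where 77.4% of all tested genes were called. Ppp1r15a (GADD34), the inducible subunit that directs dephosphorylation of eIF2, rose from 832 ± 4.58 to 1507 ± 23.9, and Ppp1r15b, the constitutive one, from 1150.0 ± 33.8 to 1489 ± 20.3. Impact, which inhibits GCN2 activation by competing for its partner GCN1, was at 341, 336 and 312 in the WT group against 1018, 1112 and 1137 in the CSE-KO group (log2 fold change 1.72, SE 0.05, adjusted p = 3.8e-10). Gcn1 itself fell from 1507 ± 40.2 to 1180 ± 41.6. Dele1 and Oma1, which relay mitochondrial stress to HRI, fell by 0.35 and 0.85 on the log2 scale. The chaperone gene Hspa5 (BiP), whose product restrains PERK, rose from 1634 ± 29.1 to 2197 ± 44.2.

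Messages that are read through upstream open reading frames when eIF2 is phosphorylated were higher as mRNA in 7 of 8 cases, with a median of 0.43, where 38.3% of all tested genes were called higher and the median was 0.00. The list was put together by function with earlier results known, and nothing particular to it is read from the count. Atf5, a stress transcription factor, rose by 1.77 on the log2 scale, Ddit3 (CHOP) by 2.67 and Eprs, a tRNA synthetase, by 0.36. Atf4 was at 752, 707 and 745 in the WT group against 1024, 1033 and 1025 in the CSE-KO group. Slc35a4, a sugar nucleotide carrier gene, was at 629 ± 7.77 and 641 ± 17.6 and did not pass. Translation of these messages was not measured.

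Among the factors that select the start codon and close the initiation step, 4 of 7 rose and 0 fell, a share called of 57.1% where 77.4% of all tested genes were called. Eif1a and Eif1ax encode near-identical forms of eIF1A, which steadies the scanning ribosome. Their reads may therefore be split between these genes. Eif1a was at 702, 669 and 657 in the WT group against 1103, 1142 and 1116 in the CSE-KO group, a 1.66-fold rise (log2 fold change 0.73, SE 0.03, adjusted p = 6.5e-09). Eif1ax, on the X chromosome, was at 797, 781 and 770 against 796, 726 and 712 and did not pass (adjusted p = 0.13). The Eif1a groups were far apart and the Eif1ax groups overlapped by 1 library, CSE-KO 1. Without CSE-KO 1, Eif1ax passed the test as well.

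Eif1, which guards against wrong start codons, was at 487, 482 and 493 against 633, 610 and 644 (log2 fold change 0.37, SE 0.03, adjusted p = 2.2e-06). Its paralog Eif1b was at 213 ± 3.79 and 226 ± 17.6 and did not pass (adjusted p = 0.30). Eif1ad, an eIF1A-domain protein linked in human cells to maturation of the small ribosomal subunit, was at 374, 362 and 377 against 589, 567 and 578 (log2 fold change 0.64, SE 0.04, adjusted p = 4.8e-08). Eif5, which triggers GTP hydrolysis by eIF2 at the start codon, rose from 1552 ± 45.1 to 1812 ± 21.1 (adjusted p = 9.6e-06). Eif5b, which joins the large ribosomal subunit, was at 1353 ± 29.0 and 1399.7 ± 22.7 (adjusted p = 0.099).

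eIF3 is the largest initiation factor and the scaffold on the small ribosomal subunit. Of its 14 genes 10 rose, 0 fell and 4 did not pass, with a median log2 fold change of 0.18. The share called, 71.4%, was near the 77.4% of all tested genes, and 3 of the 14 passed the test against a fold of 1.2, where 48.8% of all tested genes did. Eif3c, a core scaffold subunit, was at 1528, 1485 and 1515 in the WT group against 2094, 2136 and 2119 in the CSE-KO group (log2 fold change 0.49, SE 0.02, adjusted p = 6.5e-09). Eif3g, an RNA-binding subunit that acts in scanning, was at 463, 448 and 483 against 667, 689 and 689 (log2 fold change 0.55, SE 0.04, adjusted p = 1.6e-07). Eif3a, the largest core subunit, was at 2191, 2129 and 2093 against 2473, 2474 and 2500 (log2 fold change 0.22, SE 0.02, adjusted p = 3.6e-06). The groups of all 3 were apart.

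Most other eIF3 subunits moved by less. Eif3e, Eif3k, Eif3h, Eif3i and Eif3l rose by 0.09 (Eif3l) to 0.27 (Eif3e) on the log2 scale, where Eif3i lost its call without WT 2 and Eif3l without WT 3. Eif3b, the third core scaffold subunit, was at 1485 ± 29.7 and 1515 ± 35.2 (adjusted p = 0.33). Eif3d, a subunit that can bind caps, Eif3f and Eif3m lay between −0.04 and 0.01 and did not pass. Eif3j1 and Eif3j2 encode near-identical forms of the loosely held subunit J, so their reads may be split between them. Eif3j1 rose from 170.3 ± 8.62 to 198 ± 4.36 and Eif3j2 from 24.3 ± 2.08 to 41.3 ± 5.03. The log2 fold change of Eif3j2, 0.75 (SE 0.18, adjusted p = 0.0023), was the largest among the eIF3 genes. It came at low counts, and with a minimum value of 50 the gene was filtered out and not tested. Eif3c reached the highest value per exonic base of any member in any library, 0.608, in a CSE-KO library. In WT its mean per kilobase was 430, against 444 for Eif3b and 442 for Eif4g1. Whether reads sharing a start position were removed before counting is not stated, and after a correction for such removal its log2 fold change was 0.72.

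Of the cap-binding complex, the gene for eIF4E rose most, and those for the scaffolds that bind it, Eif4g1 and Eif4g3, fell. On mm10, Eif4e lies at chr3:138526179-138559696 and Eif4g1 at chr16:20668313-20692884, both on the plus strand. Eif4e was at 424, 404 and 428 in the WT group against 770, 772 and 805 in the CSE-KO group. That was a 1.87-fold rise, the largest of the 53 tested members (log2 fold change 0.90, SE 0.04, adjusted p = 4.0e-09), and no CSE-KO value came near the WT range. Eif4g1, the main scaffold that links the cap to the ribosome, was at 3270, 3156 and 3252 against 2786, 2694 and 2776. It fell by 0.23 on the log2 scale (SE 0.02, adjusted p = 2.0e-06), as did its paralog Eif4g3 (1858 ± 20.6 against 1583 ± 39.0, adjusted p = 4.6e-06). Eif4g2 (DAP5), a relative that lacks the eIF4E-binding part, was at 2858 ± 51.1 and 2935 ± 15.9 (adjusted p = 0.088).

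The helicase genes Eif4a1 and Eif4a2 rose by 0.20 and 0.26 on the log2 scale. Eif4a2 was at 896, 856 and 846 against 1019, 1051 and 1033 (adjusted p = 1.3e-05). Eif4a3, a helicase of the exon junction complex, was at 516, 500 and 503 against 514, 534 and 539, and the cofactor Eif4h at 1231 ± 25.2 and 1213 ± 25.5. Neither passed. Eif4b, the other helicase cofactor, fell by 0.08, a change that did not pass with equal library totals. Of the other cap-binding relatives, Eif4e2, which represses bound messages, was at 726 ± 22.5 and 744 ± 5.29 and did not pass. Eif4e3 was at 312, 271 and 279 against 273, 229 and 256, where the groups overlapped and the adjusted p was 0.042, a call lost without WT 1, WT 3, CSE-KO 2 or CSE-KO 3. Eif4a3l2 stayed between 1 and 6 in all libraries and was not tested.

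Promoter windows of Eif4e, which rose, and of Eif4g1 and Eif5a2, which fell, are printed here, taken from RefSeq on GRCm38.p6. The part of the marked motif in these changes was not tested. Each window runs from 250 bases before to 50 bases after a start site, on the plus strand, and capitals mark CACGTG, the E-box bound by MYC and USF factors, which reads the same on both strands. The Eif4e window is chr3:138527018-138527317, that of Eif4g1 is chr16:20672477-20672776 and that of Eif5a2 is chr3:28781027-28781326.
Eif4e: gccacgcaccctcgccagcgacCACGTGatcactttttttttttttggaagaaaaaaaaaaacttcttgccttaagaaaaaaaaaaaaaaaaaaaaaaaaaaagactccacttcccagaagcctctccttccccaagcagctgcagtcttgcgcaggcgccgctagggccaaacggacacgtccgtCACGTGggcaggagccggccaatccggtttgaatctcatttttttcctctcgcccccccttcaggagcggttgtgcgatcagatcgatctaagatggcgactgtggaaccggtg
Eif4g1: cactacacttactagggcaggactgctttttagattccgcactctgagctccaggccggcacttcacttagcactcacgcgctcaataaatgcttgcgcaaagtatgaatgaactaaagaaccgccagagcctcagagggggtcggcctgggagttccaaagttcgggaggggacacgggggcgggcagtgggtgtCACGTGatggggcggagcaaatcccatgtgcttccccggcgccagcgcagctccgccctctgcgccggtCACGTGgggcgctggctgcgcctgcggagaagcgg
Eif5a2: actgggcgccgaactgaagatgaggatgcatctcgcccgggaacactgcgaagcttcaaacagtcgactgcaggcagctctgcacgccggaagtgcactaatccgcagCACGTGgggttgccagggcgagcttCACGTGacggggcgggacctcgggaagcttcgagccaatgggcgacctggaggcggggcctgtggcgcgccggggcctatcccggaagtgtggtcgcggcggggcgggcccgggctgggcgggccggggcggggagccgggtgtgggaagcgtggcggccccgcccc

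Each of these windows held 2 E-boxes. RefSeq windows were found for 43 of the 55 members, 56 windows in all. Eif4ebp1 was among the members without a window, so its promoter was not searched for any motif. The E-box was in 21.4% of the member windows, in 9.80% of the 13063 windows of tested genes and in 7.15% of all 32851 windows. Windows of a gene can overlap, as for Eif5a, where chr11:69921226-69921525 and chr11:69921337-69921636 hold the same E-box. The difference in share was not tested. Of the 10 members with one, 5 rose (Eif3a, Eif3k, Eif4a1, Eif4e and Eif5a), 2 fell (Eif4g1 and Eif5a2) and 3 did not pass (Eif1b, Eif3f and Eif4h). Of the 33 members with windows and no E-box, 14 rose, 8 fell and 11 did not pass. The motif TGATGNAA, bound by ATF4 with C/EBP factors and searched on both strands, was in 1 member window, that of Eif2s3x, and in 2.33% of the windows of tested genes. The full cyclic AMP response element TGACGTCA, also searched on both strands, was in 0 member windows and in 2.90% of the windows of tested genes. The pyrimidine run CTTTCC, searched on the plus strand only, was in 12.5% of member windows and 14.7% of those of tested genes. A match is a description of letters and does not show binding.

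The genes for the proteins that hold eIF4E moved in opposite directions. On mm10, Eif4ebp1 lies at chr8:27260329-27276674 on the plus strand and Eif4ebp2 at chr10:61428491-61452661 on the minus strand. Eif4ebp1 was at 511, 501 and 525 in the WT group against 654, 655 and 661 in the CSE-KO group (log2 fold change 0.36, SE 0.03, adjusted p = 1.8e-06). Eif4ebp2, its close relative, was at 1389, 1423 and 1414 against 942, 886 and 919 and fell by 0.62 on the log2 scale (SE 0.03, adjusted p = 8.7e-09). Neither gene's groups overlapped. After the correction for removed reads that share a start position, Eif4ebp2 had the larger fall, at −0.70 against −0.67 for Eif2ak4 on the log2 scale. Per kilobase of exon, the levels in WT were close, at 233 ± 5.49 for Eif4ebp1 and 244 ± 3.05 for Eif4ebp2. In CSE-KO they were 299 ± 1.72 and 158 ± 4.87. Eif4ebp3, the third family member, was listed at 6, 2 and 4 against 6, 4 and 4 and was not tested, and it lies within Maskbp3 on the same strand. Eif4enif1, whose product 4E-T carries eIF4E into the nucleus and to P-bodies, was at 707, 756 and 722 against 815, 832 and 855 (log2 fold change 0.20, SE 0.03, adjusted p = 0.00029).

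**Figure D4:**
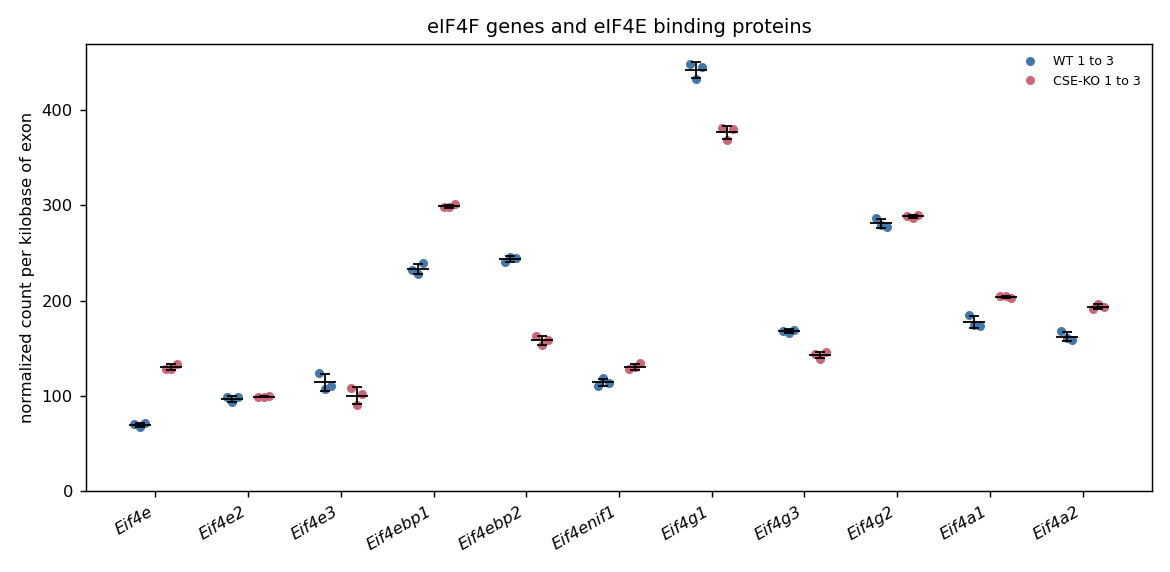
Normalized counts per kilobase of exon of the eIF4F genes and the eIF4E binding proteins in each library, with WT 1 to 3 in blue, CSE-KO 1 to 3 in red and black marks for the mean ± SD of 3 libraries. Eif4e went from 69.7 to 130.2, Eif4ebp1 from 233 to 299, and Eif4ebp2 from 244 to 158.

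eIF5A carries the modified amino acid hypusine and helps ribosomes past difficult sequences, and eIF6 keeps the large ribosomal subunit from joining too early. Eif5a was at 834, 810 and 821 in the WT group against 904, 915 and 907 in the CSE-KO group (log2 fold change 0.15, SE 0.03, adjusted p = 0.00043). Eif5a2, its second gene, was at 608, 595 and 599 against 465, 442 and 390 and fell by 0.48 (SE 0.06, adjusted p = 2.5e-05). Eif6 was at 632, 644 and 624 against 785, 790 and 788 (log2 fold change 0.31, SE 0.03, adjusted p = 1.8e-06). The groups of all 3 genes were apart, with CSE-KO 3 the lowest library for Eif5a2.

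Ratios between members were formed within each library, from levels per kilobase, for 8 pairs or sums chosen after the values were seen. The ratio of Eif4ebp1 and Eif4ebp2 together to Eif4e was 6.70, 7.05 and 6.79 in the WT group against 3.59, 3.51 and 3.43 in the CSE-KO group. That of Eif4g1 to Eif4e was 6.34 ± 0.0880 against 2.90 ± 0.0729. That of Eif4ebp1 to Eif4ebp2 was 0.958 ± 0.0270 against 1.89 ± 0.0594. Within eIF2B, the ratio of Eif2b3 to Eif2b5 was 0.141 ± 0.00642 against 0.263 ± 0.00440, and within eIF2 that of Eif2s2 to Eif2s1 was 0.544 ± 0.0192 against 0.743 ± 0.0328. Of the paralog pairs, Eif1a to Eif1ax went from 1.09 ± 0.0190 to 1.91 ± 0.135, Eif2s3y to Eif2s3x from 1.58 ± 0.0374 to 2.19 ± 0.0152, and Eif5a2 to Eif5a from 0.346 ± 0.00144 to 0.225 ± 0.0202. The groups of each ratio did not overlap. The exact two-sided permutation test gave p = 0.10 for each, before and after adjustment over the 8, which is the smallest that 3 against 3 libraries allow.

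**Figure D5:**
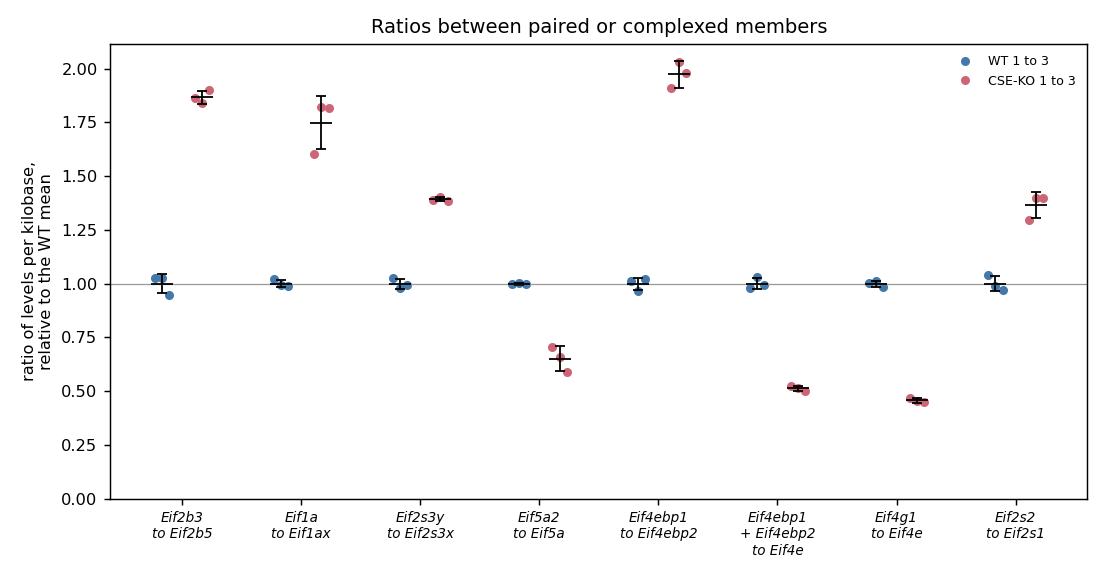
Ratios between levels per kilobase of exon of initiation factor genes in each library, each divided by its WT mean so that WT lies around 1, with WT 1 to 3 in blue, CSE-KO 1 to 3 in red and black marks for the mean ± SD of 3 libraries. The ratios to Eif4e and of Eif5a2 to Eif5a lie below 1 in every CSE-KO library and the other 5 lie above it.

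Other genes that act on cap binding and on the later steps of translation were again mixed. Of 15 poly(A)-binding proteins and regulators of eIF4E and eIF4A, 9 rose, 4 fell and 2 did not pass. The share called was 86.7%, where 77.4% of all tested genes were called. Cyfip1, an eIF4E-binding repressor, fell by 0.46 on the log2 scale. Of the kinases that phosphorylate eIF4E, Mknk2 fell by 0.43 and Mknk1 rose by 0.37. Pdcd4, which inhibits eIF4A, fell from 367 ± 5.51 to 215 ± 16.0. Paip2b, an inhibitor of poly(A)-binding protein, rose from 491 ± 14.5 to 676 ± 24.0, and Pabpc1 itself was at 1673 ± 60.1 and 1713 ± 28.4.

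Of 26 tested genes of the mTORC1 pathway, which controls the eIF4E binding proteins, 11 rose, 12 fell and 3 did not pass. The share called was 88.5%, where 77.4% of all tested genes were called, 38.3% higher and 39.0% lower. Inhibitors of the complex moved both ways. Sesn2, a leucine sensor that restrains mTORC1 under stress, rose from 648 ± 16.9 to 1175 ± 17.2, whereas its relatives fell, Sesn1 from 351 ± 8.02 to 147 ± 14.7 and Sesn3 from 584 ± 17.7 to 374 ± 31.6. Akt1s1 (PRAS40), an mTORC1 inhibitor, rose from 583 ± 11.7 to 941 ± 23.4, and Deptor, another, fell by 0.57 on the log2 scale. Of the complex that switches off the activator Rheb, Tsc1 rose from 476 ± 16.5 to 827 ± 40.5, Tsc2 fell from 1032 ± 22.5 to 699.7 ± 39.2, and Tbc1d7 from 151 ± 10.5 to 93.7 ± 10.6. Ddit4l and Ddit4, further inhibitors, rose by 1.87 and 0.45 on the log2 scale. The arginine sensor genes Castor1 and Castor2 fell from 197 ± 10.3 to 105 ± 14.6 and from 1008 ± 36.7 to 336 ± 33.2. Rheb itself rose by 0.50 on the log2 scale, and the kinase gene Mtor fell from 1372 ± 25.5 to 990.3 ± 59.1. The largest change of the list was that of Rragd, at 2, 3 and 4 in the WT group against 89, 99 and 120 in the CSE-KO group. Its log2 fold change of 4.91 (SE 0.27) rests on low WT values.

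Of 13 elongation and termination factors 7 rose, 4 fell and 2 did not pass, a share called of 84.6% where 77.4% of all tested genes were called. Eef2k, the kinase that switches off elongation factor eEF2, was at 513, 536 and 479 in the WT group against 201, 190 and 203 in the CSE-KO group (log2 fold change −1.36, SE 0.05, adjusted p = 3.6e-09). Eefsec, the selenocysteine elongation factor, fell by 0.56, and the termination factor Gspt2 rose from 114 ± 19.7 to 201 ± 5.29. Eef1e1, a scaffold of the tRNA synthetase complex, rose from 197 ± 8.72 to 297 ± 15.7. Of 6 recycling, reinitiation and hypusine genes, 3 rose, 0 fell and 3 did not pass, where 77.4% of all tested genes were called. The share called was thus below the background, and nothing particular to this list is read from the count. Abce1, a ribosome recycling factor, rose by 0.35 on the log2 scale. Dhps, the first enzyme of hypusine formation on eIF5A, rose by 0.45. Dohh, the second enzyme, was at 99.0 ± 4.58 and 105 ± 2.08 and did not pass (adjusted p = 0.37).

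Of the libraries labelled CSE-KO, the first was the nearest to WT in 21 of the 38 called members (55.3%), against 61.2% of all called genes. Without CSE-KO 1 the calls held for 37 of the 38 members, all but Eif2ak3. With the WT libraries averaged and counted as 1 sample, 32 of the 38 kept their calls. The spread in that fit came from CSE-KO alone, the lone WT sample was assumed to vary alike, and the 6 that lost them were Eif2ak3, Eif3i, Eif3j1, Eif3l, Eif4b and Eif4e3.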

How the data were processed

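The deposited table holds 1 whole-number score for each gene in each library. The sources do not name its unit. Because median-ratio size factors recomputed from the values were all between 1.003 and 1.008, the scores were taken to be counts already scaled between libraries and then rounded. Per the submitters' processing notes, the build was mm10 and the tools, in no stated order, included DESeq2 1.26.0, featureCounts 1.6.5, Picard 2.21.7, STAR 2.7.3a and Trimmomatic 0.39. Per the labels' protocols, libraries were stranded and reads were single-end, of 75 bases.

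Values were taken as log2(value + 0.5), which understates changes of low genes. Genes with at least 10 in at least 3 libraries were fitted by group with limma 3.58.1 in R 4.3.3 (trend, robust, two-sided), with Benjamini-Hochberg adjustment over 13750 genes. Levels per kilobase use exonic lengths from GENCODE mouse release 21, whose coordinates matched for all 55 members.

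Members, lists and tests were chosen with earlier results of these data known. Named in full were the eIF2 kinases, the eIF4E binding proteins, Eif2s1, Eif4e, Eif2s3x, Eif2s3y and up to 3 further members of each role with the smallest adjusted p, and up to 4 genes of each partner list. Other genes were named after their values were seen.

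Of the members, 17 overlap another gene of the table, 13 of them on the opposite strand. For pairs of WT libraries, the squared difference over the sum of their values averaged 0.704 to 0.754 over genes. For CSE-KO pairs it averaged 0.863 to 1.94. Counting noise gives 1 in unscaled counts. The values here were taken to be scaled, by factors that are not known, so 1 is only a rough guide. Counts limit the precision, and totals only approximate depth in reads.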

Additional observations from a re-analysis of the deposited data

Results flagged for a closer look

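Of the rows with an initiation factor symbol that are not protein-coding, Eif4a-ps4, a processed pseudogene related to the eIF4A genes, was higher in every CSE-KO library than in every WT library. It was at 87, 96 and 77 in WT libraries 1 to 3 against 117, 115 and 110 in the CSE-KO group, a log2 fold change of 0.40 (limma adjusted p = 0.0047). Such a copy can share reads with Eif4a1, which rose by 0.20 in the same libraries, and its part in the result was not tested.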

How the results depend on the processing

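Under the 19 alternatives, no called member changed sign. Calls changed most in the test against a fold of 1.2, which left 12 members higher and 5 lower, and 24 partner genes higher and 14 lower, against 27, 11, 40 and 26, a test that by construction asks for larger changes. Leaving out 1 replicate gave 26 to 28 members higher and 9 to 11 lower, 37 to 39 partner genes higher and 25 to 26 lower, and a member median between 0.084 and 0.11. The median log2 fold change of the members, 0.09, was 0.14 with upper-quartile scaling, 0.16 with equal totals and 0.13 with no filter. With equal totals the median of all genes was 0.08. Eif2ak2, at −0.01, turned positive with upper-quartile scaling (0.043) and equal totals (0.067) and ranged from −0.036 to 0.022 when 1 replicate was left out. Eif2s3x, at −0.01, turned positive with upper-quartile scaling (0.036) and equal totals (0.060) and ranged from −0.040 to 0.012. The causes were not tested. With upper-quartile scaling, and likewise with equal totals, 34 members were called higher and 8 lower. Under both, Eif2a, Eif2b4, Eif3b, Eif4a3, Eif4e2, Eif4g2 and Eif5b passed as well. Under both, Eif2ak3, Eif4b and Eif4e3 lost their calls. Whether these genes passed thus depended on the scaling. For Eif2a the adjusted p in limma was 0.034 with upper-quartile scaling and 0.010 with equal totals. With the replicate block, 27 members were higher and 11 lower, the same 38 genes. Deviations of same-numbered libraries from their group means correlated at −0.001, 0.020 and 0.011, and those of other pairs at −0.020 to 0.010. Since WT libraries differed little, this cannot show whether a shared number marks shared handling. With WT counted as 1 sample and CSE-KO 2 and 3 as 1 sample, 31 members were called, and the spread then came from CSE-KO alone.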

Other observations

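Besides Eif4a-ps4, 6 processed pseudogenes with initiation factor symbols were in the table, at low values. Eif5al3-ps was at 10, 11 and 13 in WT libraries 1 to 3 against 23, 12 and 22 in the CSE-KO group (limma adjusted p = 0.061). Eif3s6-ps2 was at 6, 10 and 6 against 14, 11 and 10 (adjusted p = 0.092). Eif1-ps1, Eif3s6-ps1, Eif3s6-ps3 and Eif3s6-ps4 did not pass the filter on low values, and none of them was above 10 in any library.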
